A study of Homo sapiens with 6 samples.

Results

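The miRNAs described here are miR-26a-5p, miR-26b-5p and miR-107, which sit in introns of protein-coding host genes. They were taken by name: of 177 named miRNAs in the authors' table of comparisons, 1 name started with miR-26a, 1 with miR-26b, 1 with miR-107 and 0 with miR-103. The name rule itself used no measured value, and the 3 were read by accession among the 800 miRNA rows of the log2 table. How the authors came to name 177 of these rows, and whether by their values, was not examined here. All 3 passed the filter on low values described below. The level of miR-103 itself was not analysed here.

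Levels were measured with the nCounter miRNA assay, in which a colour-coded reporter is counted for each captured miRNA without amplification. The cells were RMUG-S-ip1, a line of human mucinous ovarian cancer, which were transfected either with a control siRNA (3 libraries) or with one directed at PRKRA (siPRKRA, 3 libraries). All libraries share the line, the transfection reagent and the mass of input RNA. Replicates are numbered 1 to 3 in both groups, and no source says whether cultures were separate; the p-values below therefore cover only the spread among these libraries, which could be technical. How far PRKRA was silenced is not known, since its transcript was not analysed here.

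The product of PRKRA is PACT, which binds double-stranded RNA and joins Dicer, the enzyme that cuts miRNA hairpins into mature miRNAs. The miR-26 genes lie within the CTDSP genes, which encode small phosphatases of the RNA polymerase II tail, and mature miR-26 is known to repress EZH2, the methyltransferase of Polycomb. The miR-103 and miR-107 genes lie within the PANK genes, which encode pantothenate kinases, the first enzymes of coenzyme A synthesis. Both miRNAs are known to target DICER1 mRNA, and the comparison of siPRKRA with control siRNA asks whether miRNA levels change when a partner of Dicer is silenced.

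The mature sequences are shown because they define which probes could be told apart. They are RefSeq's (GRCh38.p14), 5′ to 3′, with the seed, bases 2 to 8, in capitals.
miR-26a-5p: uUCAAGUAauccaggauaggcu
miR-26b-5p: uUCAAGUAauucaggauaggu
miR-107: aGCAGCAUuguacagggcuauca
miR-103a-3p: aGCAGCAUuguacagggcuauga
miR-26a-5p and miR-26b-5p have the same seed and were the only ones with it among the 147 of 177 named miRNAs that matched a RefSeq sequence. Counted from 1 at the 5′ end of miR-26a-5p, they differ by C11U and C21U over the 21 bases compared, and miR-26a-5p is 22 bases long. The seed of miR-107 was found in no other of those 147. From miR-107 to miR-103a-3p the only difference is C22G, and the sources used here do not say how far the assay's miR-107 probe separates the 2.

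The hairpins are shown because the mature miRNAs are cut from them. RefSeq's hairpins follow, with the measured mature miRNA in capitals.
MIR26A1: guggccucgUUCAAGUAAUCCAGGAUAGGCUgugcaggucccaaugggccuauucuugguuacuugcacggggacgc
MIR26A2: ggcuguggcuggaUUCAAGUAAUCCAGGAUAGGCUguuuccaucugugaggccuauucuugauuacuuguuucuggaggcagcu
MIR26B: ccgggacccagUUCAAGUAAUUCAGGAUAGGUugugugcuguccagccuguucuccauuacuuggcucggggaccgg
MIR107: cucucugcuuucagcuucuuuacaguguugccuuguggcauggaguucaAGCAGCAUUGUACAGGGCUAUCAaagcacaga
MIR26A1 is at chr3:37969404-37969480 on the plus strand, within the bounds of CTDSPL. MIR26A2 is at chr12:57824609-57824692 on the minus strand, within CTDSP2 and 22037 bases from that gene's start. MIR26B is at chr2:218402646-218402722 on the plus strand, within CTDSP1 and 6295 bases from its start. MIR107 is at chr10:89592747-89592827 on the minus strand, within PANK1 and 52415 bases from its start. CTDSP2, CTDSP1 and PANK1 run on the same strand as their hairpins. The 2 miR-26a hairpins give the same mature sequence, so the miR-26a-5p value sums both loci, whereas miR-26b-5p and miR-107 each come from 1. The measured miRNA is on the 5p arm of the miR-26 hairpins and on the 3p arm of MIR107, so the 3 members cover both arms.

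The deposited values are counts above a background, multiplied by 1 factor for each library. With the factor undone, a control library held 51641 to 56192 miRNA counts and a siPRKRA library 142684 to 305261. siPRKRA replicate 2 stood apart: miR-4454 alone was 62.6% of its signal, against 3.28% to 6.70% in the other 5 libraries, and its correlation with them across tested miRNAs was 0.833 to 0.884. The 7 epithelial marker miRNAs summed to between 8565 and 9762 in control libraries and between 7088 and 7849 in siPRKRA libraries. On the deposited scale every siPRKRA library was thus below every control library, where 27.4% of single tested miRNAs had groups that did not overlap. Most of the sum was miR-200c-3p, with means of 5927 in control and 4529 in siPRKRA libraries, and miR-205-5p, with 2687 and 2545. Mean miR-141-3p was 470 and 344, while mean miR-200b-3p was higher in siPRKRA libraries (61.5 and 81.5). miR-200a-3p and miR-429 were at the floor (the value given to low counts) in at least 1 library. Of the gut-type markers, miR-192-5p and miR-194-5p summed to at most 50.95 and each lay at the floor in at least 1 library. Of markers of other cells, erythroid miR-144-3p was between 1.09 and 151, at the floor in 1 library (siPRKRA replicate 2), while endothelial miR-126-3p, at 161 to 229, and neural miR-9-5p, at 152 to 371, were present in all libraries. All libraries came from the same cell line, and the source of these miRNAs was not tested.

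None of the 3 miRNAs changed by more than the spread between libraries. miR-26a-5p was at nearly the same mean in both groups, and the siPRKRA means of miR-26b-5p and miR-107 were lower with overlapping values. limma was fitted to log2(value + 1) over the 106 miRNAs that reached a value of 30 in 3 or more libraries, and a miRNA was called at a Benjamini-Hochberg adjusted p under 0.05. 0 of the 3 members were called, where the share called among all tested miRNAs was 0% (0 of 106). At an unadjusted p under 0.05 the members were also 0 of 3, against 17 of 106 (16%) over all tested miRNAs.

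miR-26a-5p had values of 375, 371 and 438 in control siRNA replicates 1, 2 and 3, and of 335, 458 and 335 in siPRKRA replicates 1, 2 and 3. siPRKRA replicate 2 was the highest of the 6 libraries and the other 2 siPRKRA libraries were the lowest, so the groups overlapped. The control mean was 395 ± 37.8 (SD, n = 3) and the siPRKRA mean 376 ± 71.3 (SD, n = 3). The log2 fold change was -0.08 ± 0.16 (SE) with a 95% interval from -0.47 to 0.31, which spans a ratio of 0.720 to 1.24 (limma adjusted p = 0.813). Without siPRKRA replicate 2 the estimate was -0.23 ± 0.10 (SE; limma adjusted p = 0.189), and without control siRNA replicate 3, siPRKRA replicate 1 or siPRKRA replicate 3 it was -0.0057, -0.0081 or -0.0073.

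miR-26b-5p, which shares the seed of miR-26a-5p, stood at 174, 186 and 140 in the control siRNA replicates, and in the siPRKRA replicates at 189, 114 and 105. Here siPRKRA replicate 1 was the highest of all 6 libraries and siPRKRA replicates 2 and 3 were the lowest, so the siPRKRA values enclosed the control range. The means were 167 ± 24.0 (SD, n = 3) and 136 ± 46.2 (SD, n = 3). The log2 fold change was -0.33 ± 0.26 (SE), with a 95% interval from -0.96 to 0.30 (limma adjusted p = 0.475). Without siPRKRA replicate 1 the estimate was -0.59 (limma adjusted p = 0.369), and without siPRKRA replicate 3 it was -0.17.

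miR-107 stood at 269, 287 and 232 with control siRNA, and siPRKRA replicates 1, 2 and 3 gave 228, 149 and 245. siPRKRA replicate 2 was far below the other 5, and siPRKRA replicate 3 lay within the control range. The means were 263 ± 28.1 (SD, n = 3) and 207 ± 51.4 (SD, n = 3). The log2 fold change was -0.37 ± 0.22 (SE), with a 95% interval from -0.89 to 0.16, which spans a ratio of 0.538 to 1.12 (limma adjusted p = 0.410). Without siPRKRA replicate 2 the estimate was -0.15 ± 0.12 (SE; limma adjusted p = 0.470). The difference in the means of miR-107 thus rested largely on the library in which miR-4454 held most of the signal.

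**Figure D1:**
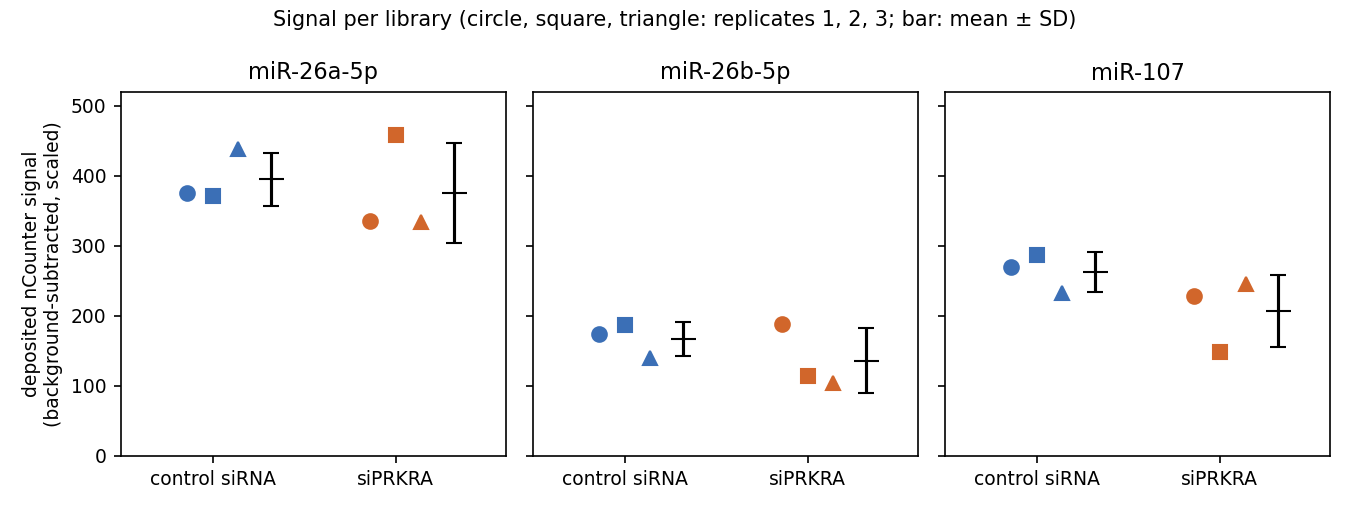
Deposited signal of miR-26a-5p, miR-26b-5p and miR-107 (y axis, background-subtracted and scaled, linear) in control siRNA and siPRKRA libraries; symbols are single libraries and the bar is the mean ± SD of 3. The groups overlap for each miRNA, and siPRKRA replicate 2 (square) is the highest library for miR-26a-5p at 458 and the lowest for miR-107 at 149.

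The authors' deposited table gave the same directions. Its mean log2 levels of miR-107 were 8.03 in control and 7.66 in siPRKRA libraries with an adjusted p of 0.567, and those of miR-26b-5p were 7.37 and 7.04 with 0.599. For miR-26a-5p the authors' deposited table used medians, 8.55 and 8.39, with an adjusted p of 0.863. It also gives a number called a fold change, between -1.05 and -1.02 for the 3, which is a ratio of log2 levels and not of signal.

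Estimates below 0 were common on the panel. Of all 106 tested miRNAs, 62 (58.5%) had a lower estimate in siPRKRA, and the median log2 fold change was -0.06. Ordered by estimate, miR-107 had 19 tested miRNAs below it, miR-26b-5p 25 and miR-26a-5p 48. Thus miR-107 and miR-26b-5p lay in the lower part of the order without standing at its end, and miR-26a-5p lay near its middle. Values of the 2 groups overlapped for all 3 members, where 27.4% of tested miRNAs (29) had groups that did not overlap.

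**Figure D2:**
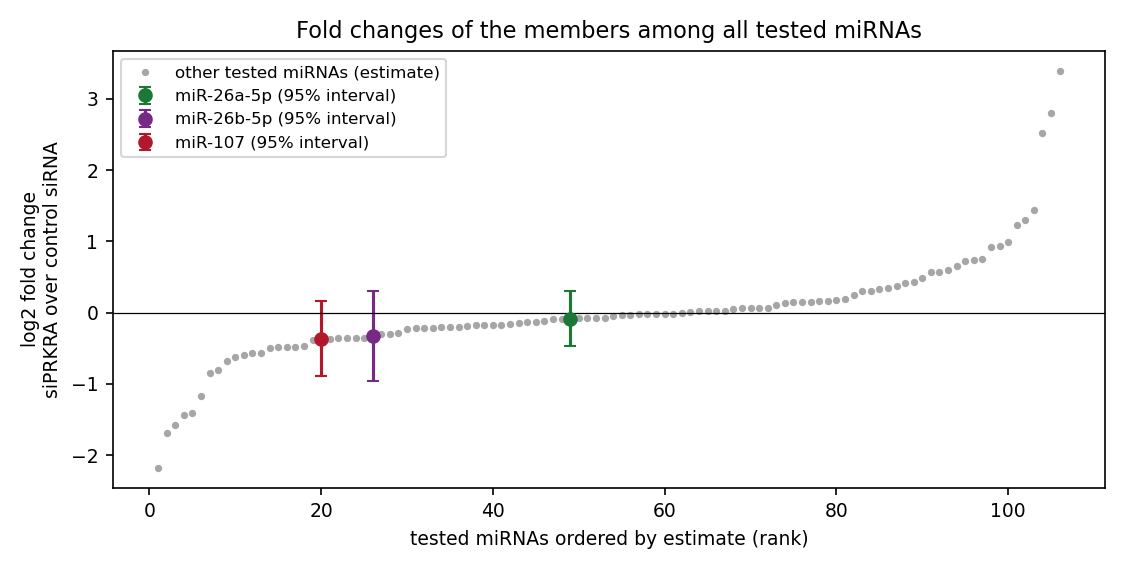
Log2 fold change of siPRKRA over control siRNA (y axis) for the 106 tested miRNAs ordered by estimate (x axis); grey points are other miRNAs and coloured points are the members with their 95% interval from limma. All 3 intervals cross 0, and the estimates run from -0.37 for miR-107 to -0.08 for miR-26a-5p.

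The depth behind these values differed between the groups. By the recovered factors, miR-107 rested on 180, 188 and 176 counts above background after control siRNA and on 986, 137 and 523 after siPRKRA. miR-26a-5p rested on 251, 243 and 333 against 1450, 422 and 713 counts, and miR-26b-5p on 116, 122 and 106 against 818, 105 and 223. siPRKRA replicate 2 had fewer counts than any control library for miR-26b-5p and miR-107. Counting error alone would give a coefficient of variation of 5.84% for miR-107 in siPRKRA libraries, where the measured one was 24.8%. For miR-26b-5p in the same libraries these were 7.12% and 34.0%, and for miR-26a-5p 3.86% and 19.0%. In control libraries the measured variation was smaller, at 10.7% for miR-107, 14.4% for miR-26b-5p and 9.56% for miR-26a-5p, against 7.43%, 9.35% and 6.08% from counting. The counting figures leave out the error of the subtracted background, and a test of the difference in spread was not run.

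In signal, miR-26a-5p ranked between 30 and 40 among the 800 miRNA rows across the 6 libraries, miR-107 between 46 and 58, and miR-26b-5p between 57 and 67. That order of the 3 members was the same in every library, although probes differ in efficiency and signals of different probes are not amounts. In control libraries miR-26a-5p held 0.465% to 0.586% of the miRNA signal, miR-107 0.310% to 0.360% and miR-26b-5p 0.187% to 0.233%. In siPRKRA replicate 2 the shares were 0.184%, 0.0599% and 0.0459%. Leaving miR-4454 and miR-720 out of the total, they became 0.662%, 0.215% and 0.165% there. The last 2 were still below the lowest control shares on that basis, 0.331% for miR-107 and 0.199% for miR-26b-5p, and the first was above the highest control share of 0.625%.

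The ratio of 2 miRNAs within a library does not depend on the factor of that library, so the balance of the members was compared on it. The ratio of miR-26a-5p to miR-26b-5p was 2.16, 1.99 and 3.13 with control siRNA, against 1.77, 4.01 and 3.20 with siPRKRA. The siPRKRA ratios included both the lowest and the highest of the 6. On the log2 scale the control mean was 1.25 ± 0.35 (SD, n = 3) and the siPRKRA mean 1.50 ± 0.61 (SD, n = 3). These means differed by 0.25 (exact two-sided permutation p = 0.6, where 3 against 3 cannot go below 0.1), and by 5.94e-06 without siPRKRA replicate 2. The ratio of miR-26a-5p to miR-107 was 1.39, 1.29 and 1.89 against 1.47, 3.08 and 1.36. Here siPRKRA replicate 2 was the highest library while the other 2 lay within the control range. The log2 means differed by 0.29 (exact permutation p = 0.6), and by -0.088 without siPRKRA replicate 2.

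Each member was also set against the median tested miRNA of its own library. miR-107 was 1.17, 1.20 and 1.09 times that median with control siRNA and 1.05, 0.821 and 1.37 times with siPRKRA, a log2 difference of -0.12 (exact permutation p = 0.7). The siPRKRA values lay on both sides of the control values. miR-26a-5p was 1.62, 1.55 and 2.07 times the median against 1.55, 2.53 and 1.87 times, a log2 difference of 0.16 (exact permutation p = 0.7). miR-26b-5p was 0.751, 0.780 and 0.659 times the median against 0.873, 0.630 and 0.586 times, a log2 difference of -0.087 (exact permutation p = 0.7). Over the 5 ratios each adjusted p was 0.7, and the sign of 4 of them turned when 1 siPRKRA library was left out: replicate 2 for miR-26a-5p over miR-107, miR-107 over the median (0.061) and miR-26a-5p over the median (-0.026), and replicate 3 for miR-26b-5p over the median (0.026).

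**Figure D3:**
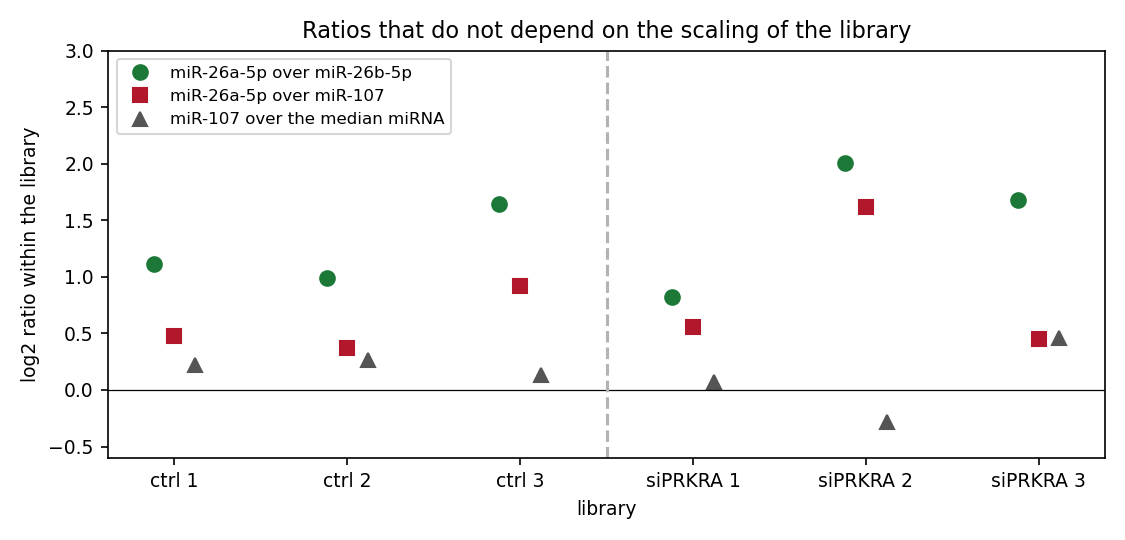
Log2 ratios within each library (y axis) for 3 control siRNA and 3 siPRKRA libraries (x axis); each symbol is 1 ratio in 1 library. siPRKRA replicate 2 has the highest ratio of miR-26a-5p to miR-107, at 1.62 on the log2 scale, and the lowest of miR-107 to the median miRNA, at -0.28.

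miR-107 belongs to a wider group of miRNAs that carry AGCAGC from base 1 or 2, with miR-15 and miR-16, which restrain the cell cycle and BCL2. Of 10 miRNAs listed for this group, 5 were named in the files and 4 were tested. The sequences below show the shared letters in capitals, 1 base further in for miR-15 and miR-16 than for miR-107.
miR-107: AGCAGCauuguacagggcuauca
miR-15a-5p: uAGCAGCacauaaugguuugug
miR-15b-5p: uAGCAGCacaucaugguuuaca
miR-16-5p: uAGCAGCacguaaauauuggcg
miR-503: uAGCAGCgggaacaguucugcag
Among the 4 tested, 0 passed and all 4 estimates were below 0, with a median log2 fold change of -0.29 against -0.06 over all tested miRNAs. Without miR-107 the median was -0.22 over 3.

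miR-16-5p stood at 1421, 1631 and 1409 with control siRNA against 1334, 842 and 1355 with siPRKRA, so the groups did not overlap (27.4% of tested miRNAs had such groups). Its log2 fold change was -0.37 ± 0.21 (SE; limma adjusted p = 0.380), close to that of miR-107. miR-15a-5p had 1373, 1362 and 1331 against 1407, 812 and 1392, so only siPRKRA replicate 2 was low (limma adjusted p = 0.636). miR-15b-5p had 3305, 2917 and 2845 against 3127, 3091 and 2735, and siPRKRA replicate 2 lay within the control range (limma adjusted p = 0.949). miR-503 was not tested, being at the floor in each control library and at 16.02, 5.62 and 9.8 after siPRKRA. The factor of a library was 1.32 to 1.53 in control and 0.231 to 1.09 in siPRKRA libraries, so values this low were not compared between the groups.

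Over the 6 libraries miR-16-5p was also the tested miRNA whose pattern was most like that of miR-107. Likeness was the root mean square difference in log2(value + 1) after each miRNA was centred on its own mean. It was 0.0634 for miR-16-5p, then 0.0850 for miR-141-3p and 0.0856 for the probe that reads miR-20a-5p together with miR-20b-5p, against a median of 0.407 over the 105 other miRNAs. In siPRKRA replicate 2 the signal of miR-107, miR-16-5p and miR-15a-5p was 0.594, 0.591 and 0.592 times its mean over the other libraries on the log2(value + 1) scale, while miR-15b-5p was at 1.04 times. Low values in that library were not particular to the seed group. There miR-19b-3p and miR-106b-5p lay -1.43 and -1.35 log2 units from their means over the other libraries, against -0.75 for miR-107. Other miRNAs were higher there, such as let-7b-5p at 1.01, and the share of tested miRNAs as low as miR-107 was not computed. All these miRNAs share their libraries and the factor of each library.

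**Figure D4:**
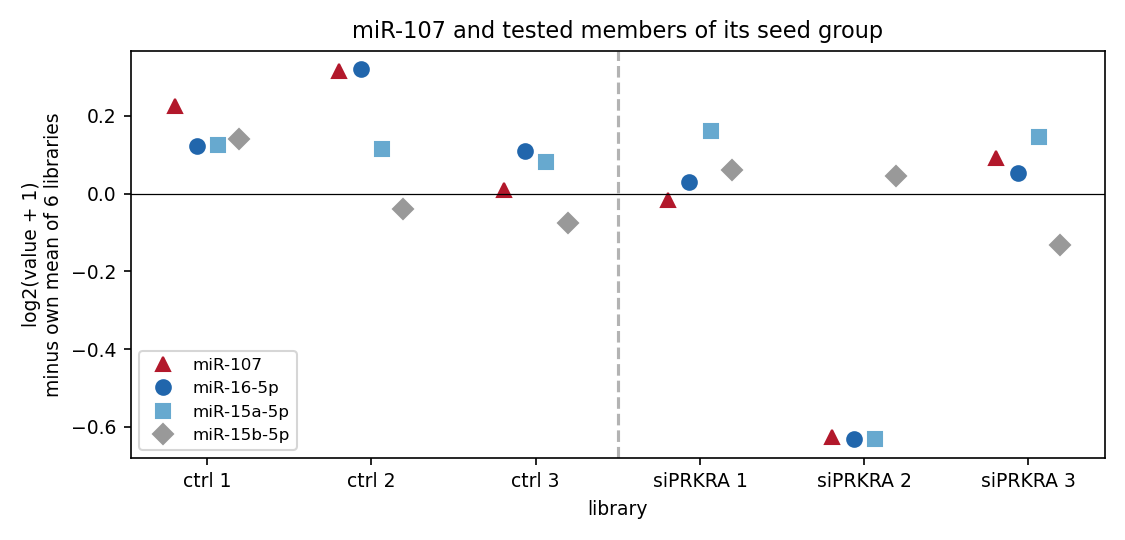
Log2(value + 1) of miR-107, miR-16-5p, miR-15a-5p and miR-15b-5p minus the mean of each over 6 libraries (y axis) by library (x axis); symbols are single libraries. In siPRKRA replicate 2 miR-107, miR-16-5p and miR-15a-5p all lie near -0.63, while miR-15b-5p is at 0.045.

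miR-26a-5p and miR-26b-5p were not alike in this sense. The 3 miRNAs most like miR-26a-5p were miR-22-3p (0.0909), miR-25-3p (0.0945) and miR-365a-3p (0.121), each highest in siPRKRA replicate 2 as miR-26a-5p was. miR-26b-5p stood at place 60 of 105 in that order, at 0.422 against a median of 0.399. The 3 most like miR-26b-5p were miR-374b-5p (0.197), miR-21-5p (0.211) and miR-135b-5p (0.217), which are larger differences than those of the nearest neighbours of the other members. miR-26a-5p was at place 53 in the order around miR-26b-5p, so the 2 miRNAs of 1 seed were as far apart as the median pair with miR-26b-5p on this panel (0.422).

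Other miRNAs known to target DICER1 are those of the let-7 family with miR-98. Of 11 listed with miR-103 and miR-107, 10 were named and 9 tested. 0 passed, with 2 estimates above and 7 below 0. The median was -0.05, against -0.06 over all tested miRNAs. let-7a-5p stood at 9122, 8456 and 8157 against 7962, 12441 and 6222, with siPRKRA replicate 2 highest. let-7g-5p ranged from 2043 to 2224 with control siRNA and from 1835 to 2181 with siPRKRA. The log2 fold changes of let-7e-5p and let-7b-5p were -0.13 ± 0.25 and -0.05 ± 0.36 (SE). Of these miRNAs miR-107 had the lowest estimate over all 6 libraries. Without siPRKRA replicate 2, let-7b-5p was called lower (-0.48, limma adjusted p = 0.0144), below miR-107 at -0.15.

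Of 29 miRNAs listed as lying in introns of coding genes, 24 were named and 21 tested. 0 passed, 5 estimates were above and 16 below 0, and 5 had an unadjusted p under 0.05, 3 higher and 2 lower (16% of all tested miRNAs had). The median was -0.19, and -0.19 without the 3 members, against -0.06 over all tested miRNAs. Values of the groups did not overlap for 9 of the 21 (42.9%, against 27.4% of all tested miRNAs), 4 higher and 5 lower, none of them a member. Among those higher, named after their values were seen, miR-186-5p had a log2 fold change of 1.30 (limma adjusted p = 0.0718), the smallest p of all 106. miR-28-5p and miR-342-3p stood at 0.74 and 0.56 (limma adjusted p = 0.175 and 0.265). miR-24-3p, which shares a host transcript with miR-23b and miR-27b at 1 of its loci, stood at 544, 554 and 561 with control siRNA and at 456, 379 and 469 with siPRKRA (limma adjusted p = 0.265). miR-93-5p, from an intron of MCM7, had 722, 746 and 682 against 659, 501 and 732 (limma adjusted p = 0.475). Host gene transcripts were not analysed here.

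The direction of all 3 members depended on what the libraries were scaled to. The assay has 5 control rows that were above 100 in every library, in graded steps; the files do not state their class. As a ratio to the geometric mean of these rows, the counts of miR-107 were 0.0946, 0.0868 and 0.0900 with control siRNA and 0.558, 0.0840 and 0.235 with siPRKRA. siPRKRA replicates 1 and 3 were above every control library and siPRKRA replicate 2 was below all of them. For miR-26a-5p these ratios were 0.132, 0.112 and 0.170 against 0.820, 0.258 and 0.321. For miR-26b-5p they were 0.0610, 0.0563 and 0.0543 against 0.463, 0.0644 and 0.100. Every siPRKRA library was above every control library for both. The share of all tested miRNAs with groups apart on that scale was not computed, so this is not read as a trait of the members. The median log2 fold change of all tested miRNAs on it was 1.61, and 60 of 106 had an unadjusted limma p under 0.05.

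On that scale the log2 fold changes were 1.30 for miR-107, 1.58 for miR-26a-5p and 1.33 for miR-26b-5p (limma adjusted p = 0.102, 0.0777 and 0.0928), and the median of all tested miRNAs was shifted to 1.61. Scaling by the 5 mRNA rows of the panel gave -0.93, -0.64 and -0.89 and moved that median to -0.62. Relative to the median of all tested miRNAs, the members stood at -0.31, -0.025 and -0.28 with the graded control rows. A scaling moves every miRNA of a library by almost the same amount, so these distances are nearly fixed under any scaling. They did depend on the libraries used: without siPRKRA replicate 2, on the deposited scale, they were -0.073, -0.16 and -0.16. Set against the median of each library instead, as above, the members differed by -0.12, 0.16 and -0.087. 0 of the 3 members passed under either scaling.

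**Figure D5:**
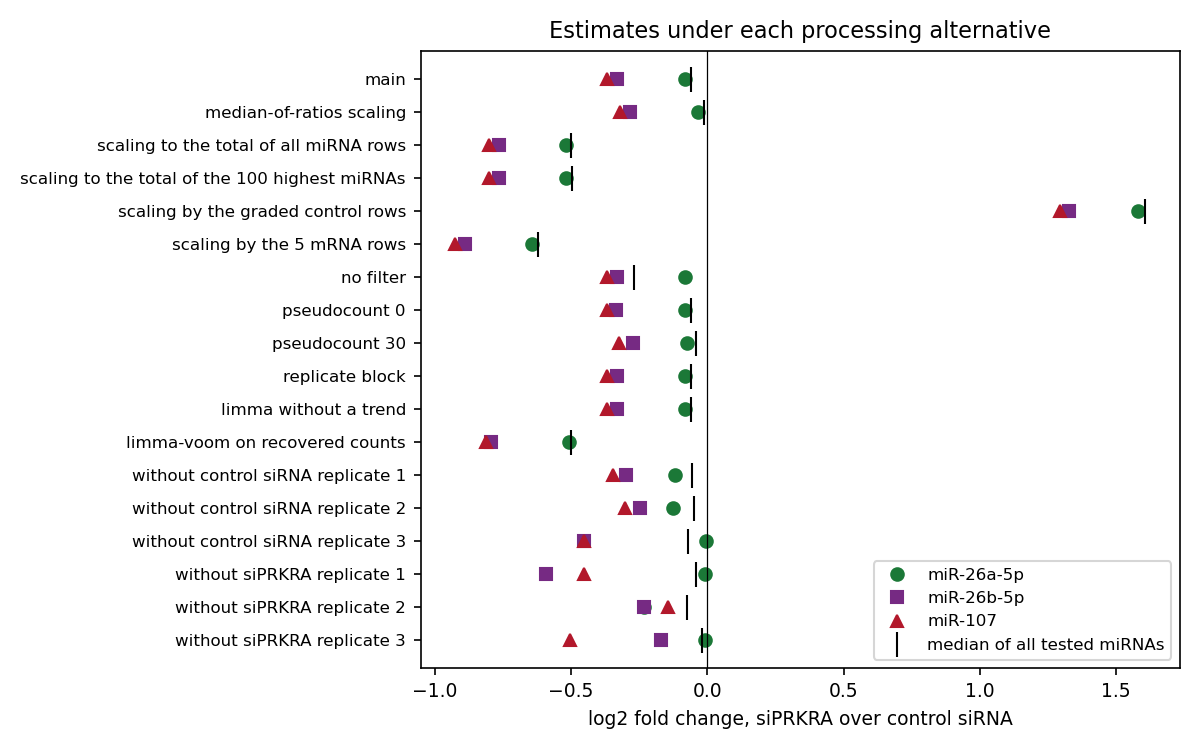
Log2 fold change of siPRKRA over control siRNA (x axis) of the 3 members under each processing alternative (y axis); coloured symbols are the members and black ticks the median of all tested miRNAs. The estimates are below 0 except with scaling by the graded control rows, where they lie between 1.30 and 1.58 beside a median of 1.61.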

How the data were processed

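The lists were chosen with earlier results of these data known. The members were taken by the name rule given above. That rule used no measured value, but it drew on the authors' table, whose own choice of miRNAs was not examined. The authors deposited a processed signal per probe and library in a table of 822 rows, and, for its 800 miRNA rows, a table of log2 values that matched that signal within 0.000234. The deposited table of comparisons holds p-values, log2 levels and a score called a fold change. The sources used here do not give the software or background rule. Per the labels' protocols, 100 ng of total RNA was used. Within a library, signals stepped in whole counts times 1 factor, between 0.231 and 1.53, so 100% of values checked were whole within 0.1 after an offset shared with the control rows. Since no deposited column holds counts, limma 3.58.1 in R 4.3.3 took log2(value + 1), with a term for group alone and eBayes with a trend, for miRNAs that reached a value of 30 in 3 or more libraries. Ratios were compared by exact two-sided permutation. Python 3.11.15 and scipy 1.17.1 were used. miRNAs named beside the members were up to 4 per list with the highest mean and the 3 nearest by pattern. miR-503, the 2 markers at the floor, the other epithelial markers given singly and miR-4454 were named after their values were seen. Replicate numbers were not used to pair the libraries in the main fit. Alternatives were other scalings, pseudocounts, no filter, a replicate block, limma without a trend, limma-voom on recovered counts, and each library left out.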

Additional observations from a re-analysis of the deposited data

How the results depend on the processing

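The estimates of the 3 members stayed below 0 and unpassed under 16 of 17 alternatives each. Scaling by the graded control rows turned them to 1.30 (miR-107), 1.58 (miR-26a-5p) and 1.33 (miR-26b-5p). On that scale the median tested miRNA stood at 1.61, and the cause of this shift was not tested. With 1 library left out the estimate ranged from -0.50 to -0.15 for miR-107. It ranged from -0.23 to -0.0057 for miR-26a-5p and from -0.59 to -0.17 for miR-26b-5p. The ratio differences then ranged from 5.94e-06 to 0.59 (miR-26a-5p over miR-26b-5p), -0.088 to 0.50 (miR-26a-5p over miR-107), -0.31 to 0.061 (miR-107 over the median), -0.026 to 0.33 (miR-26a-5p over the median) and -0.26 to 0.026 (miR-26b-5p over the median). The number of called miRNAs, 0 of 106, became 22 with the graded control rows, all higher, and 1 with the mRNA rows (miR-378e). It was 3 with a pseudocount of 30 (miR-186-5p, miR-193b-3p and miR-296-5p) and 1 without a trend (miR-186-5p). With no filter, where values at the floor enter, 635 were called, 24 higher and 611 lower. The floor was 1.32 to 1.53 in control libraries and 1 to 1.09 in siPRKRA libraries. With 1 library left out the number called ranged from 0 to 6. It was 4 without control siRNA replicate 3 and 6 without siPRKRA replicate 2, let-7b-5p of the DICER1 list among the 6. In each of these settings 0 members were called, and why the other counts differ was not tested. The samples share only replicate numbers: deviations of same-numbered samples correlated at 0.171, -0.0880 and -0.0730, and with the replicate number as a block the estimates were the same, with limma adjusted p of 0.452, 0.854 and 0.452 for miR-107, miR-26a-5p and miR-26b-5p and 0 miRNAs called.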

Other observations

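Because miR-26a-5p was high and miR-107 low in siPRKRA replicate 2, base composition, a sequence feature chosen after the values were seen, was set beside that library's deviation from the mean of the other 5. Over the 90 tested miRNAs with a RefSeq sequence, the share of G and C in the mature miRNA had a Spearman correlation of 0.39 with the deviation, and between -0.25 and 0.12 for the other libraries. This is a description across miRNAs that share a library and a factor. The members did not order that way: miR-107, with 47.8% G and C, deviated by -0.75 log2 units, miR-26a-5p, with 40.9%, by 0.31, and miR-26b-5p, with 33.3%, by -0.44.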
